A study of Mus musculus with 82 samples.

Results

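The genes described here are 10 cytokine genes: the interleukin-1 family ligands Il1a, Il1b and Il18, the interleukin-1 receptor antagonist gene Il1rn, the tumour necrosis factor gene Tnf, the colony-stimulating factor genes Csf1 and Csf2, and the regulatory cytokine genes Il10, Tgfb1 and Spp1. They were found by the gene symbol of each probe set, a group of oligonucleotides on the array that reads 1 transcript. Of the 12391 genes and 22690 probe sets on the array, 9 of the 10 genes were represented, by 14 probe sets (4 for Csf1, 3 for Il1rn and 1 for each of the others). No probe set was matched to Spp1, which encodes osteopontin, and no value is given for it.

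The study followed early plasma cell tumour formation in BALB/c.iMycEμ mice, which carry a Myc gene placed in the immunoglobulin heavy chain locus, so that its expression is driven in the B cell lineage. All groups shared this allele and an intraperitoneal injection of 0.5 ml of pristane, a mineral oil that provokes oil granulomata in the peritoneum, at an age of at least 8 weeks. No group without pristane or without the Myc allele was analysed here, so that day 7 is the baseline. In study 2, laser-captured plasma cells (15 specimens, 30 arrays) and whole granuloma sections (15 specimens, 15 arrays) were profiled at days 7, 17, 33, 49 and 105, with 3 specimens per tissue type and day. In study 1, an independent cohort, captured cells (15 specimens, 25 arrays) were profiled at days 7, 17, 33, 46 and 104, and whole granuloma (8 specimens, 12 arrays) at days 7, 17, 33 and 104, with between 1 and 4 specimens per group and 1 specimen per tissue type at day 104. Captured cells were picked by methyl green-pyronin staining, which marks RNA-rich plasma cells, and the labels call them nascent plasma cell tumour cells. Both tissue types were available for 20 specimen codes, 15 in study 2 and 5 in study 1. Replicates are separate specimen codes, and whether each code is a separate mouse is not stated, so that the p-values measure the spread between these specimens.

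In the peritoneum, macrophages that take up oil release interleukin-1 and tumour necrosis factor, which signal through NF-kB and recruit neutrophils and monocytes. Interleukin-1 beta and interleukin-18 are made as precursors and cut by inflammatory caspases before release. Interleukin-1 receptor antagonist occupies the interleukin-1 receptor without signalling. Colony-stimulating factor 1 maintains macrophages, and interleukin-10 and transforming growth factor beta 1 restrain inflammation and act on antibody-producing B lineage cells.

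Il1b, Il18 and Csf1 (2 of its 4 probe sets) were the members lower at day 105 than at day 49 in whole granuloma of study 2. Their promoters are shown because these genes moved together there. Each window holds the 250 bases before the transcription start on the gene's own strand (RefSeq, GRCm38.p6). The windows are chr2:129371140-129371389 (minus strand) for Il1b, chr9:50554450-50554699 (plus strand) for Il18 and chr3:107760470-107760719 (minus strand) for Csf1. Capitals mark a TATAAA motif in Il1b, the same motif read on the other strand in Il18, and an NF-kB motif on the other strand in Csf1.
Il1b promoter: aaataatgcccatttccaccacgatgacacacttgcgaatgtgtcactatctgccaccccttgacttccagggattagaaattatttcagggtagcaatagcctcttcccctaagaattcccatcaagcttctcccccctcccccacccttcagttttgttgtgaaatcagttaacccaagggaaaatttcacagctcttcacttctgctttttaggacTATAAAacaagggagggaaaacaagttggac
Il18 promoter: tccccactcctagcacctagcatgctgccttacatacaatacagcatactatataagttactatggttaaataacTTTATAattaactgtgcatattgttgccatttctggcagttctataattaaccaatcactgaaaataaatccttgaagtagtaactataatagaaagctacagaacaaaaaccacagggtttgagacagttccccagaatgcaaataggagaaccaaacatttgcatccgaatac
Csf1 promoter: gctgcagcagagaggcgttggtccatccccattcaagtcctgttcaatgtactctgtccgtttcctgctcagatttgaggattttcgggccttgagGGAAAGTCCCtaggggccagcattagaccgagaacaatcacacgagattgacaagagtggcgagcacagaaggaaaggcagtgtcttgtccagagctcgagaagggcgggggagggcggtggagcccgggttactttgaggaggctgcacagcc
The TATAAA match of Il1b began 31 bases before the start, and that of Il18 lay 175 to 170 bases before it. The NF-kB match of Csf1 lay 154 to 145 bases before the start. Both strands of the windows of 9 member genes were searched. TATAAA was also found in Il1a, Tnf and Spp1, TGANTCA (the AP-1 motif) in Il1a and Il1rn, GAGGAA (a core bound by PU.1) in Il1a, Tnf and Spp1, and the NF-kB motif also in Tgfb1. Among 32851 promoter windows of the same length, 12.4% held TATAAA, 6.75% TGANTCA, 23.3% GAGGAA and 7.25% the NF-kB motif. None of these motifs was found in all 3 of the Il1b, Il18 and Csf1 windows.

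The values are deposited log2 intensities normalized by robust multi-array averaging (RMA), in which a difference of 1 is a 2-fold difference. Levels of different probe sets cannot be set against each other, so that each is compared between samples only. Arrays of 1 specimen and tissue type were averaged, which gave 53 specimen averages. Captured-cell arrays of study 2 had medians of 5.31 to 5.64, below those of its granuloma arrays (7.11 to 7.33). Study 1 showed a smaller gap, with medians of 4.97 to 5.11 for captured cells against 5.73 to 5.82 for granuloma. The mean signal difference between 3′ and 5′ control probe sets, which is larger where amplified RNA is shorter, was 4.14 ± 0.90 in captured cells and 1.61 ± 0.13 in whole granuloma of study 2 (SD, n = 30 and 15 arrays), and 4.49 ± 0.68 in captured cells and 3.19 ± 0.36 in whole granuloma of study 1 (SD, n = 25 and 12 arrays). The second captured-cell array of specimen 2 of day 49 of study 2 stood apart, with a median correlation of 0.258 with the other arrays of its set, against 0.867 for the next lowest. Its values and those of the first array of that specimen were far apart for Il1b (4.52 and 7.75), Csf1 probe set 1460220_a_at (4.30 and 7.07), Il10 (6.37 and 3.55) and Tgfb1 (7.17 and 5.50), and the main results that rest on it are given with and without it. The mean over 9 plasma cell markers ranged over 8.18 to 10.51 in captured cells (median 9.66), against 8.00 to 10.21 in whole granuloma of study 2 (median 8.73, quantile-normalized log2). The lowest captured value was that of the specimen with the array that stood apart, and without that array the lowest was 9.13. The mean over 10 macrophage markers ranged over 7.12 to 9.66 in captured cells (median 8.49; lowest 7.91 without that array), against 8.26 to 10.18 in whole granuloma (median 9.46), so that macrophage transcripts were measured in both tissue types. Of the 14 member probe sets, 12 (of Il1b, Il1rn, Tnf, Il10, Il18, Csf1 and Tgfb1) passed the filter on low values, a level above the array median in at least 3 specimen averages, and were tested among 14286 probe sets. Il10 and Il1rn probe set 1423017_a_at passed through 4 averages each.

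The first question was how the cytokines moved over time in the granuloma. In whole granuloma of study 2, Il1b and Il18 were about 3-fold lower at day 105 than at day 49. Between the same days Csf1 was lower by 2 of its 4 probe sets, and Il10, which is dim in this tissue, was higher. Il1rn was higher at day 33 than at day 7, and the days of Tnf did not differ beyond the threshold. Levels over all 5 days differed for 6 of the 12 member probe sets (limma moderated F test, Benjamini-Hochberg adjusted p under 0.05), beside 23.1% of all probe sets tested. These were Il18 (adjusted p = 0.0097), Csf1 1460220_a_at (0.0133) and 1448914_a_at (0.0353), Il10 (0.0185), Il1rn 1425663_at (0.0247) and Il1b (0.0375). The F tests found none of the 6 when whole granuloma of study 2 was fitted alone, with adjusted p between 0.062 and 0.132. Between 0 and 9 members passed when 1 specimen was left out, beside 1525 to 4565 of all probe sets, against 3305 in the main fit. Without the array that stood apart 9 passed, beside 4787 of all probe sets. That array is of captured cells and acts on whole granuloma only through the shared fit, which pools the spread of all groups.

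Il1b, whose product is the main secreted interleukin-1, read 8.36, 9.55 and 9.24 at day 7, 8.85, 9.31 and 9.57 at day 17, 8.91, 9.17 and 8.35 at day 33, 9.83, 8.79 and 9.03 at day 49, and 8.14, 6.93 and 7.87 at day 105 in whole granuloma of study 2 (deposited log2 values of specimens 1, 2 and 3 of each day). All 3 values of day 105 lay below all 12 earlier values. Il1b was 2.96-fold lower at day 105 than at day 49 (log2 difference -1.57, SE 0.46, limma adjusted p = 0.0140) and 2.64-fold lower than at day 7 (-1.40, SE 0.46, limma adjusted p = 0.0304). The difference from day 49 did not pass without specimen 2 of day 105 (adjusted p = 0.123) or specimen 1 of day 49 (0.064). That from day 7 did not pass without specimen 2 or 3 of day 105 or specimen 2 or 3 of day 7 (limma adjusted p between 0.061 and 0.202).

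Il18, a partner cytokine that induces interferon gamma, read 8.50, 8.40 and 8.97 at day 7, 8.94, 8.90 and 10.10 at day 17, 8.54, 8.60 and 7.93 at day 33, 10.63, 9.12 and 9.09 at day 49, and 8.99, 7.63 and 7.60 at day 105. Days 105 and 49 did not overlap, although specimen 1 of day 105 was slightly above all specimens of day 7. Il18 was 2.91-fold lower at day 105 than at day 49 (-1.54, SE 0.39, limma adjusted p = 0.0043), and the difference between day 105 and day 7 did not pass (-0.55, adjusted p = 0.355). Without specimen 2 of day 105 the adjusted p of the difference from day 49 was 0.051, and without specimen 1 of day 49 it was 0.078.

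Csf1, the growth factor of the macrophage lineage, read 8.59, 8.94 and 7.82 at day 7, 8.39, 8.74 and 8.53 at day 17, 8.26, 8.14 and 7.71 at day 33, 9.22, 8.91 and 8.46 at day 49, and 8.01, 7.39 and 6.84 at day 105 (probe set 1460220_a_at). Day 105 lay below day 49 without overlap and overlapped with days 7 and 33. The difference between day 105 and day 49 was 2.73-fold (-1.45, SE 0.34, limma adjusted p = 0.0030), and it passed whichever specimen was left out. Against day 7 it was 2.05-fold lower at day 105 (-1.03, SE 0.34, limma adjusted p = 0.0310). The difference from day 7 passed under 7 of 10 alternatives. It did not pass without specimen 2 or 3 of day 105 or specimen 1 or 2 of day 7 (limma adjusted p between 0.094 and 0.237). A second probe set, 1448914_a_at, read 7.52, 6.44 and 6.65 at day 105, against 8.15, 8.40 and 7.79 at day 49, and was 2.36-fold lower (-1.24, SE 0.33, limma adjusted p = 0.0066; 0.072 without specimen 2 of day 105). The other probe sets of Csf1 did not pass: 1425155_x_at differed by -0.55 (adjusted p = 0.140) and 1425154_a_at by 0.01 (adjusted p = 0.962).

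Il10 moved the other way. This inhibitor of macrophage cytokine production read 5.32, 5.02 and 5.31 at day 7, 4.95, 4.85 and 4.99 at day 17, 4.56, 4.76 and 4.73 at day 33, 4.99, 4.97 and 4.63 at day 49, and 5.02, 7.49 and 6.75 at day 105. Specimens 2 and 3 of day 105 lay above all earlier values, and specimen 1 lay among those of day 7. Il10 was higher at day 105 than at day 49, with a log2 difference of 1.56 (SE 0.45, limma adjusted p = 0.0112). No fold is given, because Il10 lay above the array median in only 1 of the 15 whole granuloma averages of study 2, with a median percentile of 19.6 on the array. The call ended without specimen 2 (adjusted p = 0.137) or specimen 3 (0.069) of day 105. Against day 7 the difference of 1.20 had a limma adjusted p of 0.055. The adjusted p was 0.0498 without the captured-cell array that stood apart, which holds no granuloma value and acts through the pooled spread. Specimen 1 of day 105 had the lowest Il10 and the highest Il1b, Il18 and Csf1 of its day.

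Il1rn, the antagonist gene, read 7.94, 8.72 and 8.73 at day 7, 9.78, 9.69 and 8.40 at day 17, 10.42, 10.50 and 10.01 at day 33, 8.26, 7.87 and 10.75 at day 49, and 8.73, 8.10 and 8.27 at day 105 (probe set 1425663_at). Day 33 lay above day 7 without overlap, whereas at day 49 specimen 3 was at the level of day 33 and the others were not. The difference between day 33 and day 7 was 3.59-fold (1.84, SE 0.52, limma adjusted p = 0.0314), and 1 of 12 members passed, higher, beside 1.81% of all probe sets higher, 4.06% lower and 5.87% in either direction. Probe set 1451798_at had a difference of 1.17 (adjusted p = 0.190) for the same days. The difference of 1425663_at between these days was not refitted under alternatives or with specimens left out. Its F test over days lost the call in 5 of 15 cases when 1 specimen was left out. Among them were specimens 1, 2 and 3 of day 33 (F test, adjusted p = 0.091, 0.098 and 0.052).

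Tnf read between 6.32 and 7.43 in all 15 whole granuloma specimens of study 2, and its days did not differ beyond the threshold (F test, adjusted p = 0.645). Tgfb1, which drives fibrosis and class switching to IgA, read 8.20, 7.80 and 7.51 at day 7, 8.51, 8.43 and 7.59 at day 17, 8.00, 8.24 and 8.18 at day 33, 7.50, 7.65 and 7.64 at day 49, and 7.75, 7.09 and 7.04 at day 105. Its lowest values were those of specimens 2 and 3 of day 105, but the days did not pass (F test, adjusted p = 0.087). Without the captured-cell array that stood apart, which acts here only through the pooled spread, the adjusted p of this F test was 0.038.

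In all, 1 member probe set was higher and 4 were lower at day 105 than at day 49 in whole granuloma of study 2, beside 8.55% and 12.4% of all probe sets (21.0% in either direction). The median difference of the 12 was -0.57, against 0.02 over all probe sets tested. Between day 105 and day 7, 0 members were higher and 2 were lower, beside 6.81% and 11.1% of all probe sets (17.9% in either direction). At an unadjusted p of 0.05, where the share of all probe sets was not counted, 4 members passed. With each array centred on its median, 1 member passed, Il10, which was higher.

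**Figure D1:**
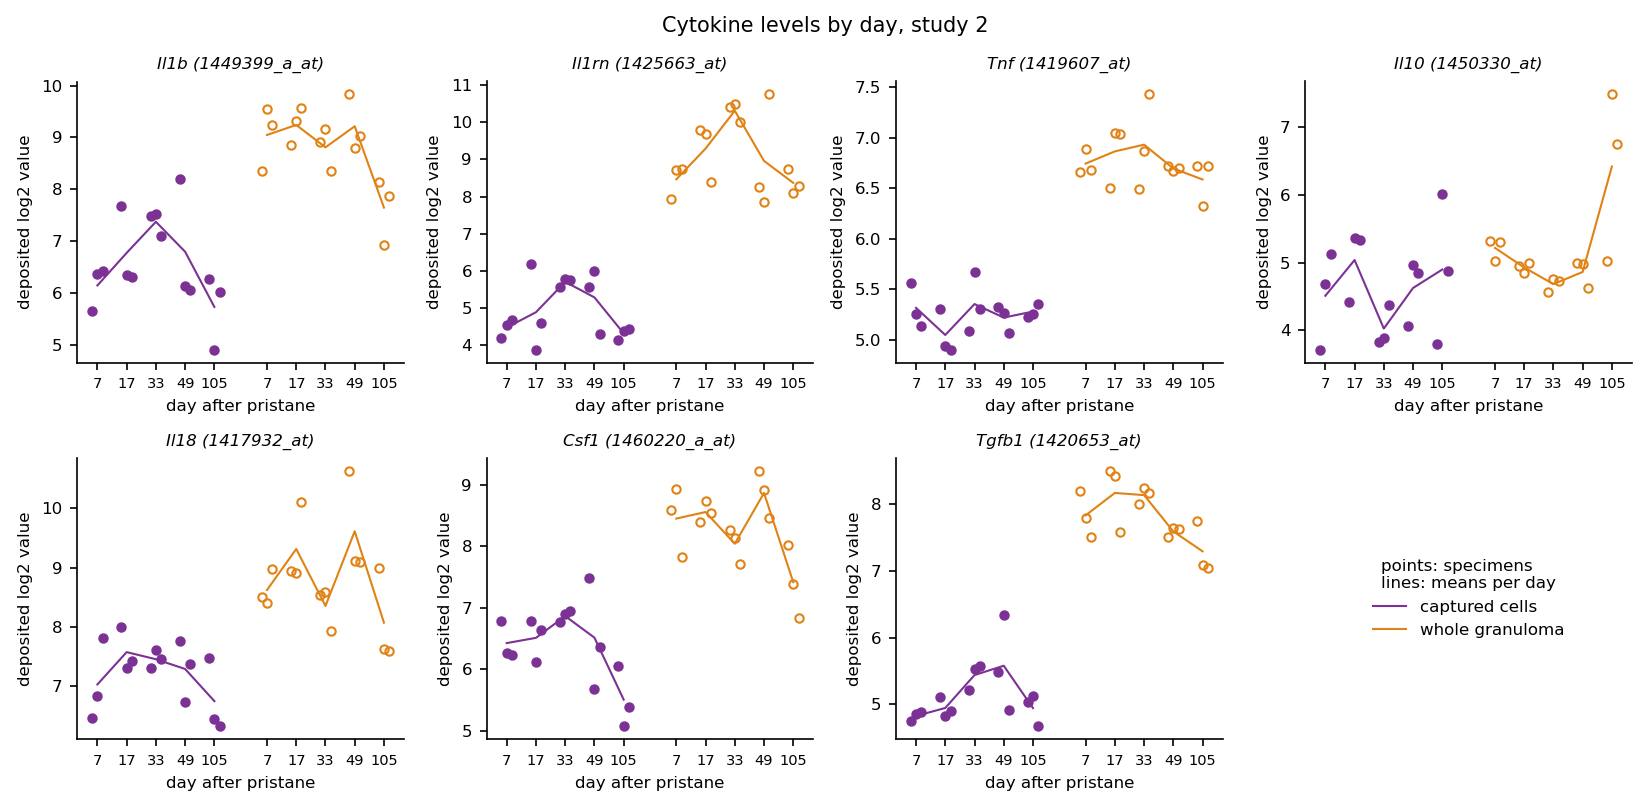
Deposited log2 values of 1 probe set per cytokine gene in study 2, with captured cells left and whole granuloma right and days after pristane on the horizontal axis. Points are specimens and lines join the means of each day. In whole granuloma Il1b fell to between 6.93 and 8.14 at day 105, against 8.79 to 9.83 at day 49, and Il10 reached 7.49.

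**Figure D2:**
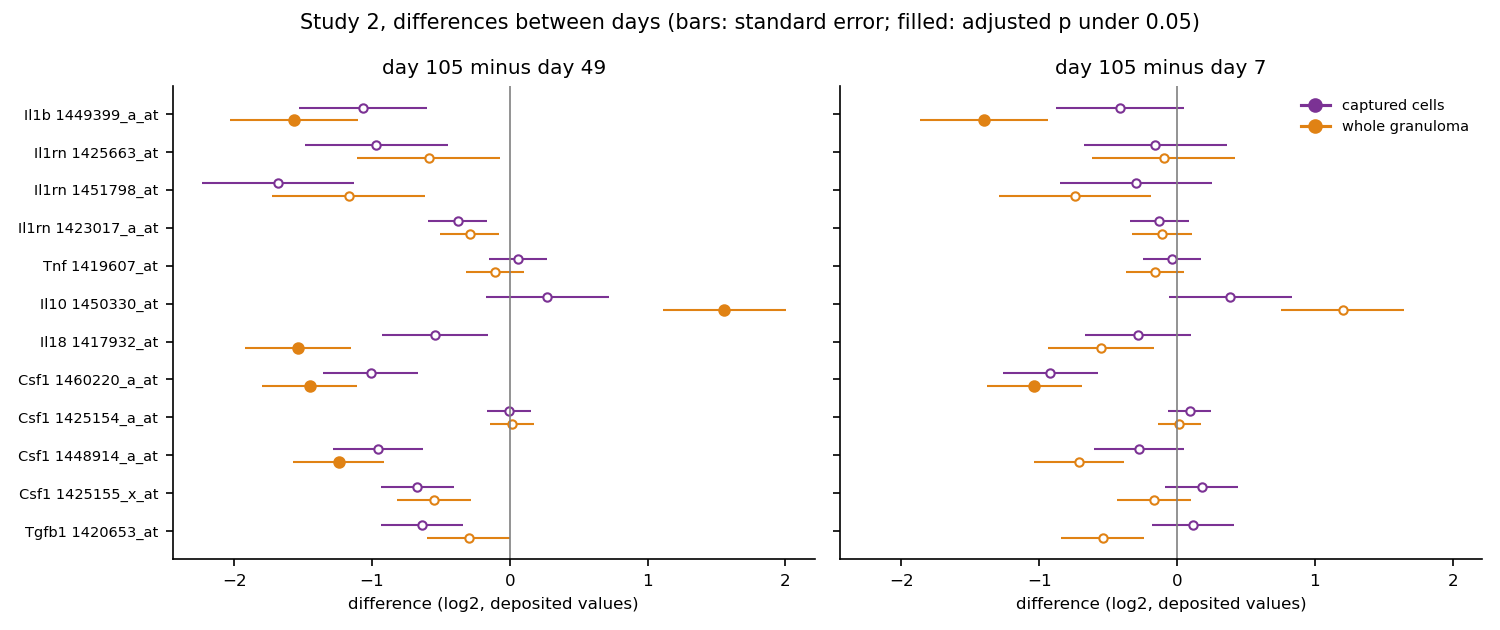
Log2 differences between day 105 and day 49 (left) and between day 105 and day 7 (right) for the 12 tested probe sets in study 2, with standard errors. Filled points passed an adjusted p of 0.05. In whole granuloma Il1b, Il18 and 2 probe sets of Csf1 lay below 0 and Il10 above it between days 105 and 49.

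Several receptors and signalling genes of these cytokines were lower at day 105 than at day 49 in whole granuloma of study 2, where 12.4% of all probe sets were lower and 8.55% higher. In the interleukin-1 and interleukin-18 system, 5 of 14 tested genes were lower and 1 higher. They included Casp4, an inflammatory caspase (-1.49), the interleukin-18 receptor gene Il18r1 (-1.40), the signalling receptor gene Il1r1 (-1.24) and the decoy receptor gene Il1r2 (-1.04). The adaptor gene Traf6 was higher (0.94). Of the colony-stimulating factor receptors and their signalling genes, 3 of 8 were lower, namely Csf2ra (-1.52), the myeloid transcription factor gene Spi1 (-1.23) and Csf3r (-1.04). Of 9 tumour necrosis factor receptor and signalling genes, 3 were lower: Ltb (-1.86), Tnfaip2 (-1.37) and Tnfrsf1a (-0.96). In the interleukin-10 receptor and signalling list 2 of 8 were lower, the kinase gene Jak1 (-1.32) and the feedback inhibitor gene Socs3 (-1.42). In the transforming growth factor beta system 6 of 14 were lower, among them the ligand gene Tgfb3 (-1.82), Tgfbi (-1.54) and the latency protein genes Ltbp3 (-1.51) and Ltbp4 (-1.34), and Smad7 was higher (0.67). None of 6 osteopontin receptor genes passed, and 1 of them, Itga9, was lower at day 105 than at day 7 (-1.18). The list medians were -0.43 for the interleukin-1 and interleukin-18 system, -0.78 for colony-stimulating factor, -0.57 for tumour necrosis factor, -0.43 for interleukin-10, -0.63 for transforming growth factor beta and -0.10 for osteopontin receptors, against 0.02 over all probe sets.

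Cell type markers moved in the same interval. Of 10 neutrophil markers 5 were lower at day 105 than at day 49, among them S100a9 (-3.79) and S100a8 (-3.08), and their mean level lay between 7.10 and 7.92 at day 105 and between 8.02 and 8.93 at day 49. Of 10 macrophage markers 3 were lower, namely Cd14 (-2.06), Cd68 (-1.54) and Mrc1 (-1.26), and their mean lay between 9.70 and 10.77 at day 105 and between 10.37 and 11.15 at day 49. Of 9 plasma cell markers 2 were higher, Prdm1 (2.21) and Irf4 (1.69), and their mean lay between 10.70 and 11.42 at day 105 and between 10.04 and 10.38 at day 49. Adipocyte markers (4 of 6 lower), smooth muscle markers (2 of 6) and fibroblast markers (2 of 7) also differed. In these bulk samples, fewer cells of a type and less RNA per cell cannot be told apart, and the part of these cell types in the cytokine differences was not tested.

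In captured cells of study 2, levels over the 5 days differed for 2 of 12 member probe sets, beside 14.4% of all probe sets: Csf1 1460220_a_at (limma F test, adjusted p = 0.0421) and Il1rn 1451798_at (0.0474). Csf1 read 6.78, 6.26 and 6.23 at day 7, 6.78, 6.12 and 6.63 at day 17, 6.76, 6.89 and 6.94 at day 33, 7.49, 5.68 and 6.37 at day 49, and 6.06, 5.07 and 5.39 at day 105. All 3 values of day 105 were below those of days 7, 17 and 33. Il1rn 1451798_at read 4.13, 4.71 and 4.47 at day 7, 6.75, 4.28 and 4.67 at day 17, 6.04, 6.06 and 5.63 at day 33, 6.80, 6.88 and 3.78 at day 49, and 3.97, 4.03 and 4.42 at day 105. Day 33 lay above days 7 and 105, and days 17 and 49 each held both high and low specimens. Without the array that stood apart, the adjusted p of Il1rn was 0.051, and Il1b passed instead (0.024). Fitted alone, captured cells of study 2 gave 0 members, as did quantile normalization. When each of the 15 specimens was left out in turn, the call of Il1rn ended in 10 cases and that of Csf1 in 8, with adjusted p up to 0.106 and 0.230.

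Il1b in these cells read 5.66, 6.37 and 6.42 at day 7, 7.68, 6.35 and 6.30 at day 17, 7.49, 7.53 and 7.10 at day 33, 8.19, 6.13 and 6.06 at day 49, and 6.28, 4.91 and 6.01 at day 105. Its values of day 33 lay above those of days 7 and 105. Il10 read between 3.71 and 6.01, with its lowest value at day 7 and its highest at day 105. Between day 105 and day 7 no member passed by limma (0 of 12, beside 7.14% of all probe sets, 4.19% higher and 2.95% lower), and 1, Csf1 1460220_a_at, had an unadjusted p under 0.05 (-0.92, adjusted p = 0.097). Between day 105 and day 49, 0 members passed by limma, beside 7.20% of all probe sets (5.96% higher and 1.24% lower), and 6 had an unadjusted p under 0.05. The share of all probe sets at that unadjusted threshold was not counted, so that the 6 have no background to be read against. Among the 6, Il1rn 1451798_at differed by -1.68 (adjusted p = 0.054), Il1b by -1.06 (0.130) and Csf1 1460220_a_at by -1.01 (0.060). Without the array that stood apart 2 members passed, both lower, beside 1.91% of all probe sets lower and 1.01% higher (2.92% in either direction). These were Il1b, at -1.60 (SE 0.46, limma adjusted p = 0.0446), and Csf1 1460220_a_at, at -1.47 (SE 0.31, limma adjusted p = 0.0049), while Il1rn 1451798_at had -1.61 (adjusted p = 0.108). Il1b and Csf1 of specimen 2 of day 49 then read 7.75 and 7.07. When 1 specimen was left out, between 0 and 7 members passed, beside 135 to 3428 of all probe sets, against 1028 in the main fit. The change between day 105 and day 7 was compared between captured cells and whole granuloma by an interaction. It passed for 0 members by limma, beside 3.72% of all probe sets (2.50% higher and 1.22% lower), and 0 members had an unadjusted p under 0.05. The differences of days 105 and 49 and of days 33 and 7 were not compared between the tissue types.

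In study 1 no member differed over days by the limma F test. The count was 0 of 12 in captured cells, beside 0.707% of all probe sets, and 0 of 12 in whole granuloma, beside 0.0210%. At an unadjusted p of 0.05, 1 member passed in captured cells, Il1b (limma adjusted p = 0.416), and 1 in whole granuloma, Tgfb1 (limma adjusted p = 0.735). Titles of captured-cell arrays of study 1, all but 1, carried 1 of 2 years. With the year as a covariate and arrays not averaged, 3 members passed in captured cells: Il1b (adjusted p = 0.013 by limma), Il1rn 1451798_at (0.025) and Csf1 1460220_a_at (0.029). That fit called 1789 of all probe sets, against 101 in the main fit, and day 104 entered it as 5 arrays of 1 specimen.

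Il1b in captured cells of study 1 read 6.16, 4.78, 4.89 and 5.69 at day 7, 5.39, 4.79, 4.63 and 5.60 at day 17, 4.93, 5.74 and 5.48 at day 33, 6.54, 6.80 and 5.66 at day 46, and 4.46 at day 104. Day 46 held the 2 highest values and day 104 the lowest. In whole granuloma of study 1 it read 8.40 and 9.36 at day 7, 8.68 and 8.37 at day 17, 8.62, 8.09 and 7.55 at day 33, and 8.77 at day 104. The single specimen of day 104 was thus at the level of day 7, where study 2 had its lowest values at day 105. Il10 in whole granuloma of study 1 read 5.70 and 4.78 at day 7, 5.15 and 3.90 at day 17, 4.0, 4.06 and 3.91 at day 33, and 4.03 at day 104. Tgfb1 read 5.63 and 6.74 at day 7, 5.83 and 7.01 at day 17, 5.43, 4.72 and 5.49 at day 33, and 6.58 at day 104. Its 3 lowest values were those of day 33.

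**Figure D3:**
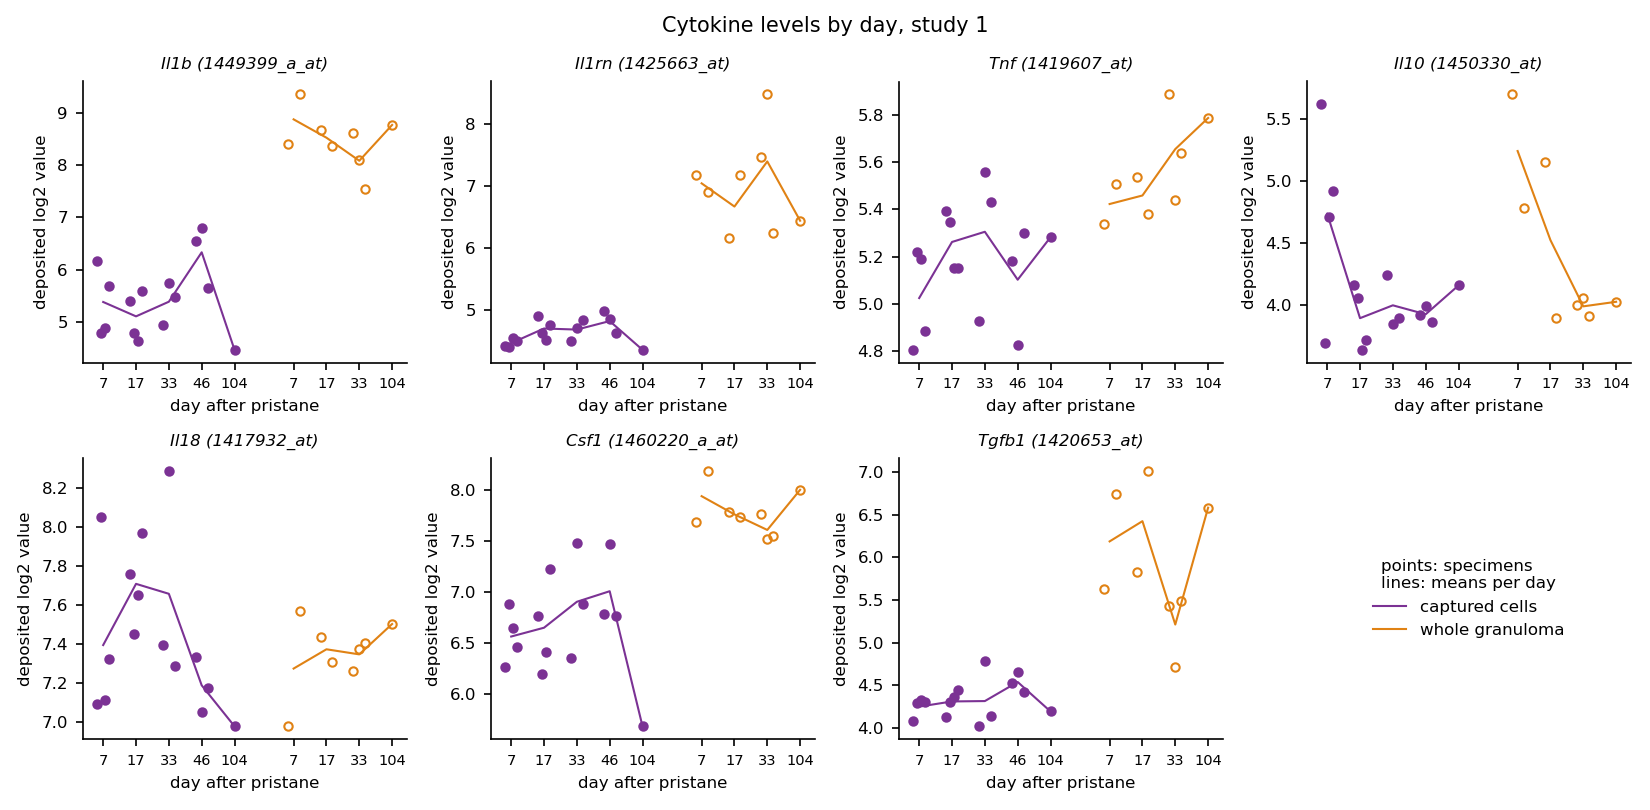
Deposited log2 values of 1 probe set per cytokine gene in study 1, with captured cells left and whole granuloma right and days after pristane on the horizontal axis. Points are specimens and lines join the means of each day. Day 104 has 1 specimen per tissue type, and Il1b of that specimen was 4.46 in captured cells and 8.77 in whole granuloma.

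The second question was how cytokine levels in captured plasma cells compared with those of the whole tissue around them. The Il1rn and Tgfb1 transcripts were lower in captured cells than in whole granuloma in both studies. Il1b was 7.24-fold lower in captured cells in study 1 and 1.41-fold lower in study 2. Il10, Tnf and Il18 were at or above the level of whole granuloma after quantile normalization, and these directions depended on the scaling. The array medians of the tissue types differ, so the values in this comparison were quantile-normalized. The differences of study 1 are means over days 7, 17, 33 and 104, in which day 104 has 1 specimen per tissue type and equal weight. Captured cells of day 46, which has no whole granuloma, are left out of these differences but are part of the levels given. The median difference of all probe sets was -1.69 in study 2 and -0.60 in study 1 as deposited, -0.02 and 0.06 after quantile normalization, and 0.19 and 0.14 with each array centred on its median.

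In study 2, 3 member probe sets were higher and 4 lower in captured cells, beside 34.6% and 35.9% of all probe sets, together 70.5% (limma, adjusted p under 0.05). The median difference of the 12 members was 0.04. On the deposited values all 12 were lower, as were 13653 probe sets against 99 higher, and with median centring 6500 probe sets were higher and 4062 lower, against 4939 higher and 5127 lower after quantile normalization. In study 1, 3 members were higher and 6 lower, beside 32.2% and 29.3% of all probe sets, together 61.5%, with a member median of -0.45. There 4599 probe sets were higher and 4183 lower, which became 5323 and 3835 with median centring and 1229 and 8459 as deposited. With the specimen as a fixed replicate block, which uses only the specimens with both tissue types, 5 members passed in study 1 (2 higher, 3 lower) and 7 in study 2. Lower under all 3 scalings were Il1rn 1425663_at and 1451798_at and Tgfb1 in study 2 (beside 27.9% of all probe sets), and these with Il1b and Csf1 1460220_a_at in study 1 (beside 25.5%). Higher under all 3 scalings were 0 members in study 2, beside 0.693% of all probe sets, and 0 in study 1, beside 8.58%.

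Il1rn 1425663_at had a lowest, median and highest level of 4.29, 4.94 and 6.74 in captured cells and 6.25, 7.19 and 9.36 in whole granuloma of study 2 (quantile-normalized log2). It was lower in captured cells in 14 of 15 specimens, with a 5.04-fold difference (-2.33, SE 0.23, limma adjusted p = 1.38e-11). In study 1 it had 4.82, 5.18 and 5.59 in captured cells and 6.02, 6.86 and 8.39 in whole granuloma, which did not overlap. It was 3.14-fold lower in captured cells there (-1.65, SE 0.33, limma adjusted p = 3.93e-05), in 5 of 5 specimens. By day in study 2 the differences were -2.12, -2.58, -3.0, -1.69 and -2.27 for days 7, 17, 33, 49 and 105. Probe set 1451798_at differed by -1.91 (SE 0.25) in study 2 and -1.56 (SE 0.35) in study 1. The study 2 value was -0.35 with the 3′ to 5′ signal difference as a covariate (adjusted p = 0.708), and the study 1 value was -1.43 with the fixed replicate block (adjusted p = 0.072). Probe set 1423017_a_at, with few averages above the array median, differed by -0.04 in study 2 (adjusted p = 0.787) and -0.47 in study 1 (adjusted p = 0.010). With the 3′ to 5′ signal difference as a covariate, 1425663_at differed by -1.15 in study 2 (limma adjusted p = 0.144). In study 1 the calls of 1425663_at and 1451798_at also ended with this covariate (limma adjusted p = 0.051 and 0.200), with the direction kept. The 3′ to 5′ signal difference separates the tissue types, and its part in the result was not tested further.

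Tgfb1 had 4.91, 5.37 and 7.52 in captured cells and 5.59, 6.14 and 6.94 in whole granuloma of study 2. The highest captured value was that of the specimen with the array that stood apart. Tgfb1 was 1.67-fold lower in captured cells (-0.74, SE 0.15, limma adjusted p = 2.54e-05; -0.86 without that array), in 14 of 15 specimens. With the 3′ to 5′ difference as a covariate the value was 0.22 (adjusted p = 0.677). In study 1 it had 4.48, 4.81 and 5.34 in captured cells and 4.80, 5.61 and 6.81 in whole granuloma, and was 2.36-fold lower in captured cells (-1.24, SE 0.21, limma adjusted p = 2.72e-06), in 4 of 5 specimens.

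Il1b had 5.21, 6.58 and 8.31 in captured cells and 5.46, 7.37 and 8.38 in whole granuloma of study 2, nearly the same range. It was 1.41-fold lower in captured cells (-0.50, SE 0.20, limma adjusted p = 0.0258), in 11 of 15 specimens. This call ended without specimen 2 (adjusted p = 0.061) or 3 (0.080) of day 17, without the array that stood apart (-0.37, 0.080) and with median centring (-0.35, 0.106). In study 1 Il1b had 4.95, 6.17 and 7.27 in captured cells and 7.47, 8.44 and 9.43 in whole granuloma, with no overlap. It was 7.24-fold lower in captured cells there (-2.86, SE 0.29, limma adjusted p = 8.31e-11), in 5 of 5 specimens. By day the differences of study 1 were -2.82, -2.73, -2.01 and -3.86 for days 7, 17, 33 and 104. Those of study 2 were -1.0, -0.73, 0.16, -0.81 and -0.12 for days 7, 17, 33, 49 and 105, none past the threshold alone. The difference between tissue types was 2.43 higher in study 2 than in study 1 over the shared days (SE 0.36, limma adjusted p = 8.62e-07). Il1b was the only member probe set called in this interaction, beside 47.0% of all probe sets (23.1% higher and 23.9% lower), and its value lay between 1.29 and 2.61 under 9 alternatives, all past the threshold.

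Il18 separated the tissue types in study 1, with 7.51, 7.99 and 9.02 in captured cells and 6.77, 7.25 and 7.43 in whole granuloma. The groups did not overlap, and Il18 was 1.83-fold higher in captured cells (0.87, SE 0.23, limma adjusted p = 0.0015), in 5 of 5 specimens. As deposited the difference was 0.06 (adjusted p = 0.824). In study 2 it had 6.65, 7.60 and 8.27 in captured cells and 6.16, 7.35 and 9.25 in whole granuloma, and the difference of 0.17 did not pass (adjusted p = 0.369; -1.57 as deposited).

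Il10 had 3.85, 5.02 and 6.34 in captured cells and 3.57, 3.86 and 6.01 in whole granuloma of study 2. It was higher in captured cells after quantile normalization, with a log2 difference of 0.90 (SE 0.19, limma adjusted p = 8.39e-05; 0.78 without the array that stood apart), in 13 of 15 specimens, but lower as deposited (-0.60). Its median percentile on the array was 40.7 in captured cells and 19.6 in whole granuloma, so no fold is given. By day the differences were 0.73, 1.54, 0.75, 1.30 and 0.16. In study 1 the difference was 0.12 (adjusted p = 0.714). Tnf had 5.17, 5.58 and 5.92 in captured cells and 4.87, 5.16 and 6.06 in whole granuloma of study 2. Its difference was 0.31 (SE 0.09, limma adjusted p = 0.0030) in study 2 and 0.37 (SE 0.13, adjusted p = 0.0144) in study 1, and it turned to -1.52 and -0.37 as deposited. With the fixed replicate block the adjusted p of Tnf in study 1 was 0.334.

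The 4 probe sets of Csf1 disagreed. Probe set 1425154_a_at was higher in captured cells by 1.22 (SE 0.10) in study 2, in 15 of 15 specimens, and by 0.95 (SE 0.14) in study 1, in 5 of 5, and turned to -0.66 in study 2 as deposited. Probe set 1460220_a_at differed by -0.12 in study 2 (adjusted p = 0.492) and by -0.58 in study 1 (SE 0.22, limma adjusted p = 0.0194). The call in study 1 ended with the fixed replicate block (-0.63, adjusted p = 0.094) and without the specimen of day 104 (-0.26, adjusted p = 0.292), code 5 of day 33 (0.062) or code 3 of day 7 (0.085). Probe set 1448914_a_at differed by 0.16 and 0.30, and 1425155_x_at by 0.12 and -0.42, in studies 2 and 1, and neither passed.

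**Figure D4:**
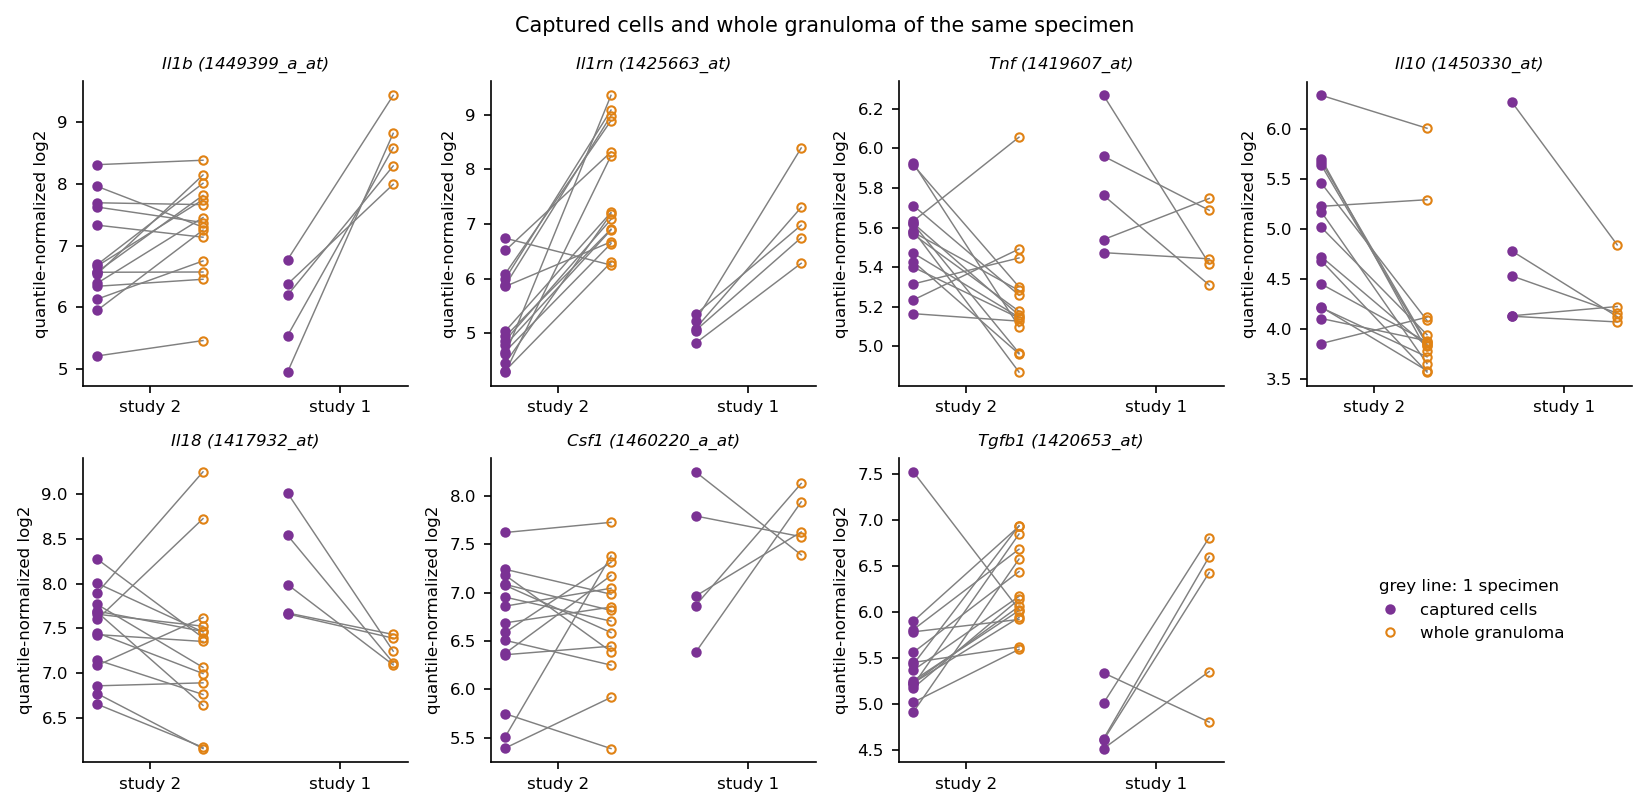
Quantile-normalized log2 values of 1 probe set per cytokine gene in captured cells (filled) and whole granuloma (open). Lines join values of the same specimen code, with study 2 left and study 1 right in each panel. Il1rn was lower in captured cells in 14 of 15 specimens of study 2 and 5 of 5 of study 1, and Il1b in 11 of 15 and 5 of 5.

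**Figure D5:**
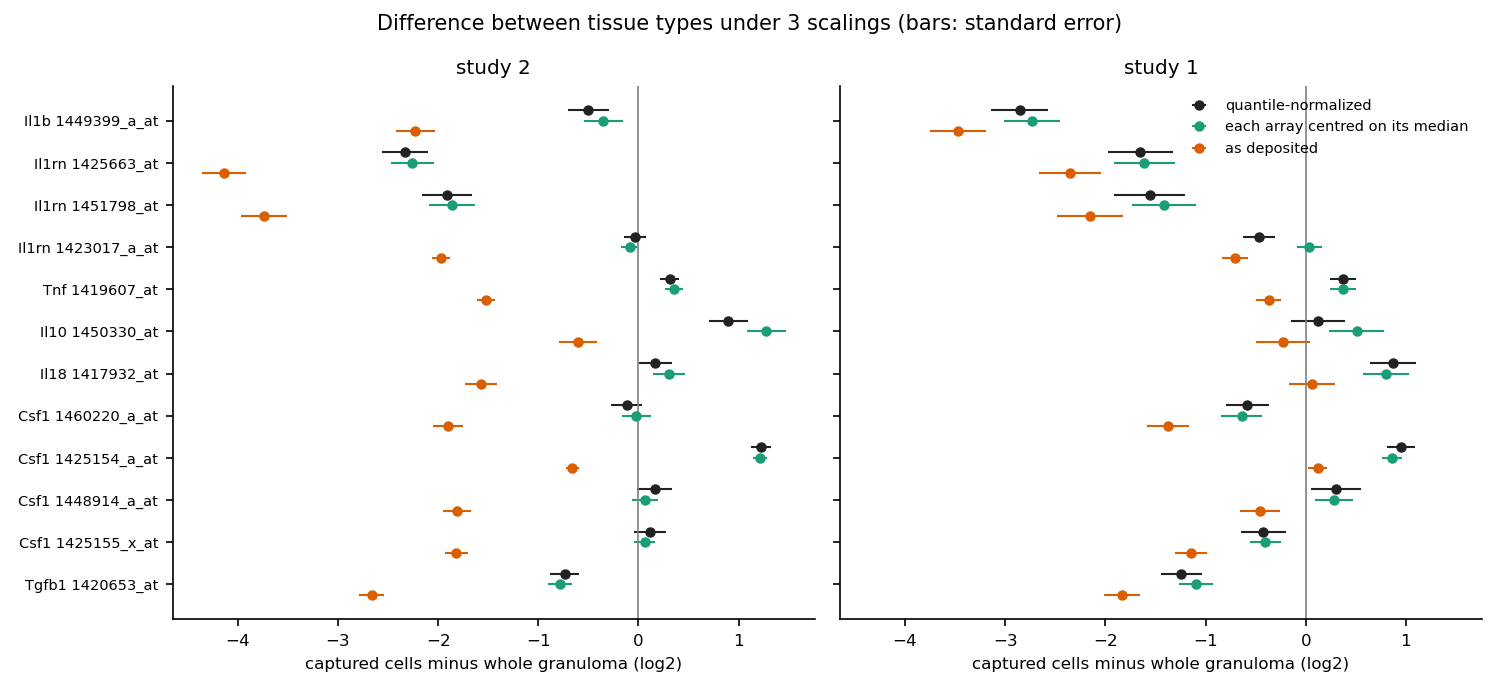
Log2 difference of captured cells minus whole granuloma for the 12 tested probe sets under 3 scalings, with standard errors, in study 2 (left) and study 1 (right). Il1rn 1425663_at lay between -2.26 and -4.14 in study 2 under every scaling shown, whereas Il10 lay at 0.90 after quantile normalization and -0.60 as deposited.

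Receptors and signalling genes were counted in the same comparison, where 34.6% of all probe sets were higher and 35.9% lower in study 2, and 32.2% higher and 29.3% lower in study 1. Some list counts lay near or below these shares, such as 3 of 14 lower in the interleukin-1 and interleukin-18 system of study 2. In the colony-stimulating factor list 0 of 8 genes were higher and 5 lower in each study, among them Csf2ra (-1.21 in study 2, -0.73 in study 1), Stat5a (-1.20 in study 2) and the Csf1 receptor gene Csf1r (-0.90 in study 1). In the transforming growth factor beta system, 9 of 14 were lower and 2 higher in study 2, with 11 lower and 2 higher in study 1. Tgfb3 differed by -2.20 in study 2 and -1.42 in study 1, Ltbp4 by -1.96 in study 2 and Tgfbr2 by -1.51 in study 1. In the interleukin-10 list 2 of 8 were higher and 4 lower in study 2, and 1 higher and 6 lower in study 1. The receptor gene Il10ra differed by -0.83 in study 2 and -1.38 in study 1, and Jak1 by -1.30 and -1.58. In the tumour necrosis factor list 2 of 9 were higher and 4 lower in study 2, and 0 higher and 5 lower in study 1, with Tnfrsf1b at -1.11 and -0.94 and Traf2 at -0.93 and -0.84. In the interleukin-1 and interleukin-18 system 5 of 14 were higher and 3 lower in study 2, and 1 higher and 6 lower in study 1. The kinase gene Irak1 was higher in both (1.61 and 1.64; -0.17 and 1.13 as deposited), Il18r1 was lower in study 2 (-1.22) and Casp4 in study 1 (-1.45). Of 6 osteopontin receptor genes, study 2 had 2 higher and 2 lower, and study 1 had 0 higher and 3 lower, with the integrin gene Itgb1 at -2.35 and -2.0. The list medians were -0.54 and -0.67 for colony-stimulating factor, -0.41 and -0.92 for transforming growth factor beta, -0.48 and -0.92 for interleukin-10, -0.17 and -0.36 for tumour necrosis factor, 0.00 and -0.27 for the interleukin-1 and interleukin-18 system, and -0.26 and -0.43 for osteopontin receptors, in studies 2 and 1. As deposited, all genes of these 6 lists called higher in study 2 had differences below 0.

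Markers moved with the tissue types as well. Of 10 macrophage markers, 1 was higher and 8 lower in captured cells of study 2, and 0 higher and 10 lower in study 1. In study 1 their mean ranged over 7.19 to 9.42 in captured cells, against 9.69 to 10.30 in whole granuloma. All 6 smooth muscle and all 6 adipocyte markers were lower in captured cells in both studies. Of 9 plasma cell markers, 6 were higher in captured cells of study 2 and 4 in study 1, with 0 lower in either. The part of the cell makeup in the cytokine differences was not tested.

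Il1a and Csf2 were below the filter in all 53 specimen averages and were not tested. Il1a, the cell-associated interleukin-1, had 3.47, 3.80 and 4.32 in captured cells and 3.71, 4.12 and 4.76 in whole granuloma of study 2 (lowest, median and highest quantile-normalized log2). In study 1 it had 3.56, 3.94 and 4.32 in captured cells and 4.38, 4.62 and 5.06 in whole granuloma, which did not overlap. Csf2, which encodes granulocyte-macrophage colony-stimulating factor, read between 5.08 and 5.73 in whole granuloma of study 2 (deposited log2), apart from 6.66 in specimen 3 of day 33. In captured cells of study 2 it read between 3.64 and 4.10, apart from 5.06 in the specimen with the array that stood apart. These deposited values do not compare the tissue types, because their array medians differ. After quantile normalization the median of Csf2 was 4.22 in captured cells and 4.03 in whole granuloma of study 2, with overlapping ranges.

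The members were also described by how they varied together over the 53 specimen averages, after the mean of each study and tissue type was subtracted. Il1b and Csf1 had a Pearson r of 0.72 over the 53 averages, 0.80 over the 15 captured-cell averages and 0.74 over the 15 whole granuloma averages of study 2. Il1b and Il18 had 0.52, 0.74 and 0.74, and Il18 and Csf1 had 0.64, 0.65 and 0.72 in the same sets. Il10 was negatively related to Il1b, with -0.37, -0.58 and -0.75, and to Csf1, with -0.54, -0.66 and -0.65. Without the array that stood apart, Il1b had 0.73 with Csf1 and -0.40 with Il10 over the 53 averages, and 0.81 and -0.62 over the captured cells of study 2. The averages share arrays, days and amplification, so these are descriptions. The genes whose pattern was most like that of Il1b were Clec4e (r = 0.88) and Clec4d (0.82), which encode myeloid C-type lectins, and Cd14 (0.82), a monocyte co-receptor. For Il1rn they were Fam214b (0.80), the macrophage elastase gene Mmp12 (0.76) and Stom (0.75). For Il18 they were Akr1c13 (0.85), Cd52 (0.80) and Cibar1 (0.79), and for Csf1 they were Rnase4 (0.86), Gng12 (0.86) and Nsmf (0.85). For Tnf they were the lysosomal transcription factor gene Tfeb (0.76), Rell2 (0.68) and Arhgap27 (0.65). Those of Tgfb1 were Anpep (0.68), Prkaca (0.67) and the elastin gene Eln (0.65), and those of Il10 were Dnajc11 (0.67), the DNA repair gene Xrcc6 (0.67) and Ddx52 (0.66).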

How the data were processed

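Per the labels' protocols, RNA of both tissue types was linearly amplified before hybridization. The deposited log2 values (82 arrays, 22690 probe sets) came from RMA normalization, and the submitters' processing notes name Partek with no version. RMA background correction compresses differences at low signal. All value columns were matched to samples (0 were not). The 14286 probe sets that passed the filter entered 1 fit of 19 groups of study, tissue type and day with limma 3.58.1 in R 4.3.3 (34 residual degrees of freedom). The specimen code was a random block (correlation 0.112 on deposited and 0.103 on quantile-normalized values), and Benjamini-Hochberg adjusted p under 0.05 was called. Tissue types were compared on quantile-normalized values over days with equal weights, days on deposited values, and days 104 and 105 were taken as the same day in the comparison of studies. The spread of each probe set was pooled over all 19 groups, so that p-values of 1 tissue type also rest on the spread of the other. A group with 1 specimen takes this pooled spread. Shares of all probe sets were counted at the adjusted threshold only. The fit was tested on simulated data.

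The same code links captured cells and whole granuloma of a specimen in the labels. Deviations of the tissue types from their group means correlated between -0.157 and 0.649 (median 0.154) over 19 specimens, above 0.1 in 12. A code written 003 and an array without a code were kept as their own specimens. In study 1, the pair of captured-cell arrays that carry code 5 at day 7 disagreed in sex-linked transcripts (Xist 11.6 and 4.90, Eif2s3y 2.83 and 7.70), so they may be 2 specimens. They were averaged as 1, and taken as 2 they left most counts of members as they were, with 7 over days in whole granuloma of study 2 in place of 6. The number of arrays limits the precision.

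Members and lists were chosen with earlier results of these data known. Named were all member probe sets with 1 gene symbol (the figures show the probe set of a gene with the highest mean), up to 4 list genes with the largest change past the threshold and the 3 genes most correlated with each member. Lists of B cell, T and NK cell, dendritic cell and endothelium markers were also counted: in whole granuloma of study 2 between day 105 and day 49, 1 of 3, 0 of 6, 0 of 2 and 0 of 6 were lower and 0 higher. Alternatives were other scalings, no filter, other blocks, 1 probe set per gene, groups fitted alone, the 3′ to 5′ signal difference or the year in the title as a covariate, other readings of 2 specimen codes, leaving out the array that stood apart and leaving out each specimen. Leaving out that array, reading code 5 as 2 specimens and following day 105 against day 49 were chosen after seeing the data.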

Additional observations from a re-analysis of the deposited data

Results flagged for a closer look

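Tgfb1 in captured cells of day 7 of study 1 read 4.08 in code 3, the lowest of 4 specimens, against 4.29 to 4.33 in the others (deposited log2). It was singled out because its gap to the others took up most of the range of its group. Of 28 groups of a member probe set looked at in this way, this was the only case, and chance gives about 1 in 20.

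The difference of Il1b between captured cells and whole granuloma was 2.43 higher in study 2 than in study 1 (SE 0.36, limma adjusted p = 8.62e-07). It was singled out because the interaction of study and tissue type passed the threshold. The studies are separate cohorts with different array medians, and cohort and processing cannot be told apart.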

How the results depend on the processing

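Member values under alternatives other than leaving out a specimen were sorted by direction and side of the threshold, and F tests by the side alone. The size of a change was not weighed. Of these values, 1252 kept both, and 40 lost and 40 gained the threshold. Another 21 changed direction with neither value past the threshold, and 15 reversed, with 1 or both values past it. The cause of these changes was not tested. The called members between tissue types in study 2 (7 of 12) were 12 as deposited and 3 with the 3′ to 5′ covariate. In study 1 (9) they were 4 with that covariate and 5 with the fixed replicate block. The block changed no count of members in study 2. Between studies (1) they were 4 with the covariate, 3 with median centring, 10 as deposited and 4 without the array that stood apart. Over days in captured cells of study 2 (2) they were 1 with the covariate, 1 with code 003 read as code 3, and 0 fitted alone, without the filter or after quantile normalization. Over days in whole granuloma of study 2 (6) they were 0 fitted alone, and in captured cells of study 1 (0) they were 3 with the title year as a covariate and arrays not averaged. Between day 105 and day 7 in whole granuloma (2) they were 1 with median centring, fitted alone or after quantile normalization. In captured cells of study 2, between day 105 and day 49 (0), they were 2 with the covariate, after quantile normalization or without the array that stood apart, and 1 with median centring or no replicate block.

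Reversed in study 2 were Il1rn 1423017_a_at (0.80) and Tgfb1 (0.22) with the covariate and, as deposited, Tnf (-1.52), Il10 (-0.60), Il18 (-1.57) and Csf1 1425154_a_at (-0.66), 1448914_a_at (-1.81) and 1425155_x_at (-1.82). In study 1, Il1rn 1423017_a_at was 0.036 with median centring, and Tnf (-0.37) and Csf1 1448914_a_at (-0.46) reversed as deposited. Between studies, as deposited, Il1rn 1423017_a_at was -1.34, Csf1 1425154_a_at -0.82 and 1425155_x_at -0.74, and Tgfb1 -0.99.

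Leaving out each specimen gave 6 to 8 members between tissue types in study 2, 8 to 9 in study 1 and 1 to 4 between studies. Over days it gave 0 to 7 in captured cells and 0 to 9 in whole granuloma of study 2, and 0 to 0 in both tissue types of study 1. Between day 105 and day 7 it gave 0 to 1 in captured cells and 0 to 4 in whole granuloma, 0 to 0 for the difference of these changes, and, between day 105 and day 49, 0 to 7 in captured cells and 1 to 8 in whole granuloma. The counts of all probe sets also varied in these fits of study 2. Over days they were 1253 to 4635 in captured cells and 1525 to 4565 in whole granuloma. Between day 105 and day 49 they were 135 to 3428 and 1166 to 3806.

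Counts of all probe sets moved by over 1.5 times over days in captured cells of study 2 (2058, and 71 fitted alone) and of study 1 (101, 215 fitted alone, 252 without the array that stood apart and 1789 with the title year as a covariate and arrays not averaged), and in whole granuloma of study 2 (3305, and 1045 fitted alone). Between tissue types in study 2 they were 10066, and 5752 with the covariate; between studies 6711, and 10486 as deposited. Between day 105 and day 7 they were 1020 in captured cells (177 fitted alone, 1617 without that array), 2563 in whole granuloma (1589 fitted alone) and 532 for the difference of these changes (221 without a replicate block, 1076 without that array). In captured cells they were 1028 between day 105 and day 49, 14 fitted alone and 417 without that array. The array medians and the dimness of Il1a, Csf2 and Il10 limit what these arrays resolve.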
